A study of Homo sapiens with 9 samples.

Results

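The bone morphogenetic protein (BMP) genes described here are 4 ligands, BMP2, BMP4, BMP5 and BMP7, and 6 genes that restrain or bind BMP family ligands, NOG, BMPER, BAMBI, CHRD, FST and GREM1. The members were chosen with earlier results of these data known. Their probe sets were chosen by gene symbol, as those that the array annotation gives to 1 of these genes alone. Each gene had 1 such probe set, 10 of the 33297 on the array, and all 10 were among the 18417 genes tested. The label fits these genes except that BAMBI encodes a decoy receptor held in the cell membrane and not a secreted protein.

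BMPs are secreted ligands of the TGF-beta family that bind pairs of type I and type II receptors, which phosphorylate SMAD1, SMAD5 and SMAD9. Antagonists such as noggin, chordin and gremlin bind the ligands outside the cell and keep them from their receptors. BMP signalling is known for patterning the primitive streak, where mesoderm and endoderm form in the embryo, and for driving pluripotent cells to mesoderm and to amnion-like or trophoblast-like states.

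All RNA came from H9-TCF7L1 cells, a derivative of the established human embryonic stem cell line H9 in which doxycycline induces TCF7L1, a TCF/LEF factor that mostly represses Wnt targets. There were 3 arrays in each of 3 groups: cells given both primitive streak differentiation medium (PS medium) and doxycycline at 1 ug/ml over 48 h, cells given the PS medium alone over 48 h, and untreated cells in the maintenance medium mTeSR1. Over-expression was meant to reveal candidate TCF7L1 targets. Every group carried the transgene, no group had doxycycline without it, and the composition of PS medium is not given in the sources used here, so added BMP in the medium cannot be judged from these data.

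To show the genomic setting of members that changed together in PS medium, the 250 bases before the most upstream listed start of 5 of them are printed 5′ to 3′ on the gene's strand, from RefSeq on build GRCh38.p14. The windows are chr7:33904665-33904914 (plus strand) for BMPER, chr14:53955051-53955300 (minus strand) for BMP4, chr15:32717754-32718003 (plus strand) for GREM1, chr10:28677271-28677520 (plus strand) for BAMBI and chr5:53480379-53480628 (plus strand) for FST. The BMP4 window lies inside the full interval of that gene, chr14:53949736-53956891, and so is not upstream of the whole gene. Capitals mark CTTTG, the core of TCF/LEF sites, and GGCGCC, a GC-rich element that BMP-activated SMADs bind, on either strand.
BMPER: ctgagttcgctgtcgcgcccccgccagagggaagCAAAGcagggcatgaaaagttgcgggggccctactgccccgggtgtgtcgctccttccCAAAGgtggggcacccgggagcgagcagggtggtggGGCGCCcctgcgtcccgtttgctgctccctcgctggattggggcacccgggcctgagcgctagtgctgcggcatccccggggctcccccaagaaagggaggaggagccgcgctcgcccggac
BMP4: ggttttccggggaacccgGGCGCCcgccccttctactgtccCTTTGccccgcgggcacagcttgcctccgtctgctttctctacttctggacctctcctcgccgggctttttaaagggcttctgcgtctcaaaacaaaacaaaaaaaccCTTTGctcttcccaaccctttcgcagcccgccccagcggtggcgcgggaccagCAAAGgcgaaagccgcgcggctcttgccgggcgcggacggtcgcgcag
GREM1: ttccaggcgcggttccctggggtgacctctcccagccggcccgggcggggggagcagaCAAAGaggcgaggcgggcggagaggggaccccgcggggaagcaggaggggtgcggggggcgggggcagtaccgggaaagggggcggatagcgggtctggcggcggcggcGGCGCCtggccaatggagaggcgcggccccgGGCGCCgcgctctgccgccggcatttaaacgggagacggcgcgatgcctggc
BAMBI: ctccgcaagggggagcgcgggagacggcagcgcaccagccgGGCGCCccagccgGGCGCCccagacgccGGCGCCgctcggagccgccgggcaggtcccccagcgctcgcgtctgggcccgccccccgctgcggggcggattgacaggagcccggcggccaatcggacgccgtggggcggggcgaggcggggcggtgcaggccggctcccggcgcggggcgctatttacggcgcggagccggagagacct
FST: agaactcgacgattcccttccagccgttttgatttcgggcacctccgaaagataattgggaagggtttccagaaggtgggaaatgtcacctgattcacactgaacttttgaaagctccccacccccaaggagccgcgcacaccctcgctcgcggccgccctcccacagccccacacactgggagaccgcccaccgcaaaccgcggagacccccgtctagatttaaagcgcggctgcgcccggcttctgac

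Entries were matched by symbol for 7 of the 10 members, all but BMP2, BMP7 and NOG, with 11 windows because BMP4, BMPER and GREM1 have several listed starts. CTTTG was in 3 of the 11 windows, those of the first starts of BMPER, BMP4 and GREM1, against 42.1% of 35116 windows of the same length. GGCGCC was in 6 of the 11, against 16.4% of all windows, with 3 copies in that of BAMBI. Each window of BMPER and that of CHRD, which was not called, are among the 6. These shares count windows and not genes, and they leave out BMP2, BMP7 and NOG. GGCGCC holds only G and C. The windows with it had a GC content of 63.6% to 81.6%, and those without it 35.6% to 70.4%. Its share among all windows of like GC content was not computed. The longer form CTTTGA was in 0 of the 11, against 11.2% of all windows. The 2 marked motifs shared no base in any window. These matches describe the letters only.

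TCF7L1 itself, the induced gene, had deposited intensities of 13100, 12433 and 2699 with doxycycline, 1275, 1542 and 1611 in PS medium alone, and 3718, 3878 and 3572 in untreated cells. Intensity is the brightness of a gene's probes on a linear scale, as the authors deposited it. Fitted TCF7L1 was 5.24-fold higher with doxycycline than in PS medium (log2 2.39 ± 0.47, adjusted p = 0.00464). Replicate 3 of the doxycycline group stood apart from the other two in TCF7L1, and without it the difference was 8.79-fold (3.14 ± 0.09, adjusted p = 3.91e-08). Every PS array was below every untreated array in TCF7L1, with a difference of -1.35 ± 0.47 that missed the threshold (adjusted p = 0.0502). The SE comes from all 3 groups, and without doxycycline replicate 3 the same difference passed (-1.35 ± 0.08, adjusted p = 1.02e-06). It also passed without doxycycline replicate 1 (0.0383) or 2 (0.0397) and with the replicate number as a block (0.0306). Against untreated cells TCF7L1 differed by 1.04 ± 0.47 with doxycycline (adjusted p = 0.124), and by 1.78 ± 0.09 without replicate 3 (adjusted p = 4.9e-07). Arrays within a group correlated at 0.989 to 0.997 across genes. The 8 pluripotency markers summed to 20707 to 21264 with doxycycline, 14719 to 17221 in PS medium and 27509 to 29025 in untreated cells. The 8 streak markers summed to 15460 to 24550, 79211 to 99841 and 2083 to 2244 in the same groups. EOMES alone averaged 12187, 54452 and 212 in that order. The 4 measured endoderm markers summed to 1857 to 2534, 5077 to 12880 and 1181 to 1254. Their PS arrays varied widely in HHEX, at 931, 5045 and 5448. Of the 11 measured amnion markers, 8 rose and 0 fell with doxycycline against PS medium (the unadjusted counts were the same). Over all genes 8.91% rose and 8.44% fell. In PS medium against untreated cells 6 of these markers rose and 2 fell. They summed to 34350 to 38004 with doxycycline, 19284 to 20570 in PS medium and 3527 to 3940 in untreated cells. TFAP2A alone averaged 17114 with doxycycline and 8440 in PS medium. The part of these markers in the results below was not tested. Markers of fibroblasts summed to 3312 to 4127, 3307 to 3566 and 6182 to 6394, and of neuroectoderm to 4846 to 5089, 8172 to 9492 and 5331 to 6016, in that order of groups. Most markers of these lists were not called in PS medium against untreated cells. Of 8 fibroblast markers 1 rose and 2 fell (median log2 difference -0.06), and THY1, a surface protein also found on pluripotent cells, fell by 1.70 on the log2 scale. Of 8 neuroectoderm markers 1 rose and 1 fell (median 0.01), and the riser was OTX2, a homeobox factor also found in pluripotent cells (1.08 ± 0.10). THY1 and OTX2 were singled out after their values were seen. No marker was at 0 on any array. In bulk RNA, fewer cells of a type and less RNA per cell cannot be told apart.

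**Figure D1:**
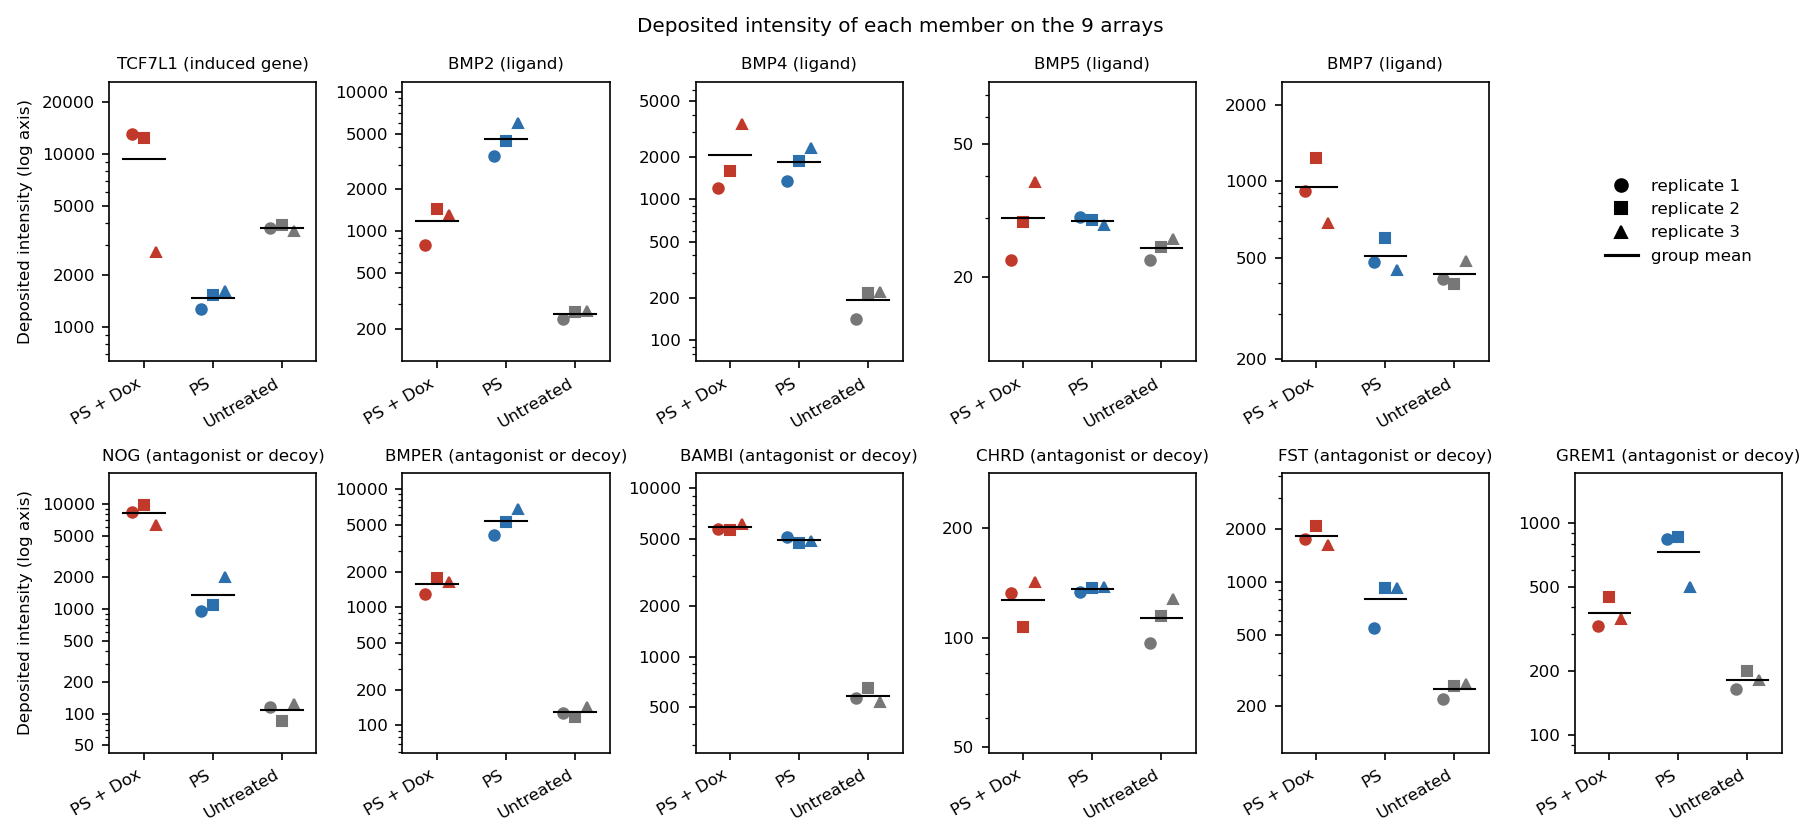
Deposited intensity (log axis) of TCF7L1, the 4 ligands and the 6 antagonists or decoys on the 9 arrays, for the doxycycline, PS medium and untreated groups. Points are arrays, shaped by replicate number, and lines are group means. BMP2 and BMPER are highest in PS medium alone, NOG and FST are highest with doxycycline, and BMP5 and CHRD stay within 22.4 to 38.4 and 96.6 to 142.

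Differences are on the log2(intensity + 16) scale after quantile normalization, from limma, a linear model fitted to all genes at once, and a gene is said to rise or fall where its p, adjusted over all genes, is under 0.05. The first comparison asks how the differentiation medium alone changed BMP gene expression. Of the 10 members, 7 rose in PS medium against untreated cells and 0 fell by limma (8 and 0 where p is left unadjusted), against 14.2% of all 18417 genes that rose, 15.7% that fell and 29.8% called either way. The risers were 2 of 4 ligands, BMP2 and BMP4, and 5 of 6 antagonists, BMPER, NOG, BAMBI, GREM1 and FST. The median log2 difference was 1.69 over the ligands and 2.45 over the antagonists, beside -0.01 over all genes. No ligand lay near the ligand median, since BMP2 and BMP4 differed by 4.06 and 3.16 and BMP7 and BMP5 by 0.22 and 0.20. The arrays of the groups did not overlap for 9 of 10 members, against 43.3% of all genes.

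BMP2 (probe set 8060850, GRCh38.p14 chr20:6767686-6780246) encodes a ligand that signals in extraembryonic and cardiac mesoderm. Its intensities were 3471, 4445 and 5924 in PS medium, against 235, 263 and 269 in untreated cells. Every PS array was far above every untreated array, and the fitted rise was 16.7-fold (log2 difference 4.06 ± 0.22, SE, n = 3 per group, adjusted p = 3.94e-07). BMP4 (probe set 7979241, chr14:53949736-53956891), the ligand most used to induce mesoderm from pluripotent cells, had 1343, 1867 and 2300 in PS medium, against 142, 215 and 221 in untreated cells. Its groups did not overlap either, with a rise of 3.16 ± 0.34 on the log2 scale (adjusted p = 4.46e-05).

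BMP7 (probe set 8067185, chr20:57168753-57266641), a ligand that can pair with BMP2 or BMP4, had 482, 599.8 and 447 in PS medium, against 413, 393 and 488 in untreated cells. These groups overlapped, and the difference of 0.22 ± 0.18 did not pass (95% interval -0.19 to 0.63, adjusted p = 0.431). BMP5 (probe set 8127193, chr6:55753653-55875590), a close relative of BMP7, was dim, at 30.1, 29.5 and 28.5 in PS medium, against 22.5, 24.5 and 26.0 in untreated cells. Its difference of 0.20 ± 0.11 did not pass (interval -0.05 to 0.45, adjusted p = 0.233), although the groups did not overlap. It lay below the array median on all 9 arrays. The values carry no detection call, so whether BMP5 was above background is not known.

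BMPER (probe set 8132250, chr7:33904915-34156427) encodes a secreted, chordin-like protein that binds BMPs and can inhibit or promote their signalling. Its intensities were 4067, 5260 and 6819 in PS medium, against 128, 118 and 144 in untreated cells. This was the largest difference among the 10 members, 5.20 ± 0.17 on the log2 scale (adjusted p = 1.11e-08). NOG (probe set 8008627, chr17:56593699-56595611) encodes noggin, which binds BMP2 and BMP4 tightly. It had 953, 1086 and 2022 in PS medium, against 117, 85.3 and 124 in untreated cells. The lowest PS array was still well above the highest untreated one, with a 10.6-fold rise (3.41 ± 0.25, adjusted p = 2.85e-06).

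BAMBI (probe set 7926875, chr10:28677521-28682932), the membrane decoy that lacks a kinase domain, had 5163, 4716 and 4879 in PS medium, against 569, 654 and 539.7 in untreated cells. It was the tightest of the members, with an 8.01-fold rise (SE 0.07 on the log2 scale, adjusted p = 9.75e-10). GREM1 (probe set 7982377, chr15:32718004-32745106), gremlin, had 843, 859 and 498 in PS medium, against 166, 201 and 182 in untreated cells. Replicate 3 was the low PS array, and the groups stayed apart (3.70-fold, 1.89 ± 0.20, adjusted p = 4.26e-05). FST (probe set 8105302, chr5:53480629-53487134), follistatin, which binds activins most tightly and some BMPs, had 548, 933 and 926 in PS medium, against 217, 259.6 and 265 in untreated cells. It rose 3.05-fold (1.61 ± 0.18, adjusted p = 5.49e-05), with PS replicate 1 the lowest of its group.

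CHRD (probe set 8084496, chr3:184380054-184390739), chordin, an antagonist made by the organizer in vertebrate embryos, had 134, 137 and 138 in PS medium, against 96.6, 115 and 128 in untreated cells. The groups did not overlap, but the difference of 0.28 ± 0.11 did not pass (interval 0.04 to 0.52, adjusted p = 0.0784). It too lay below the array median on all 9 arrays.

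**Figure D2:**
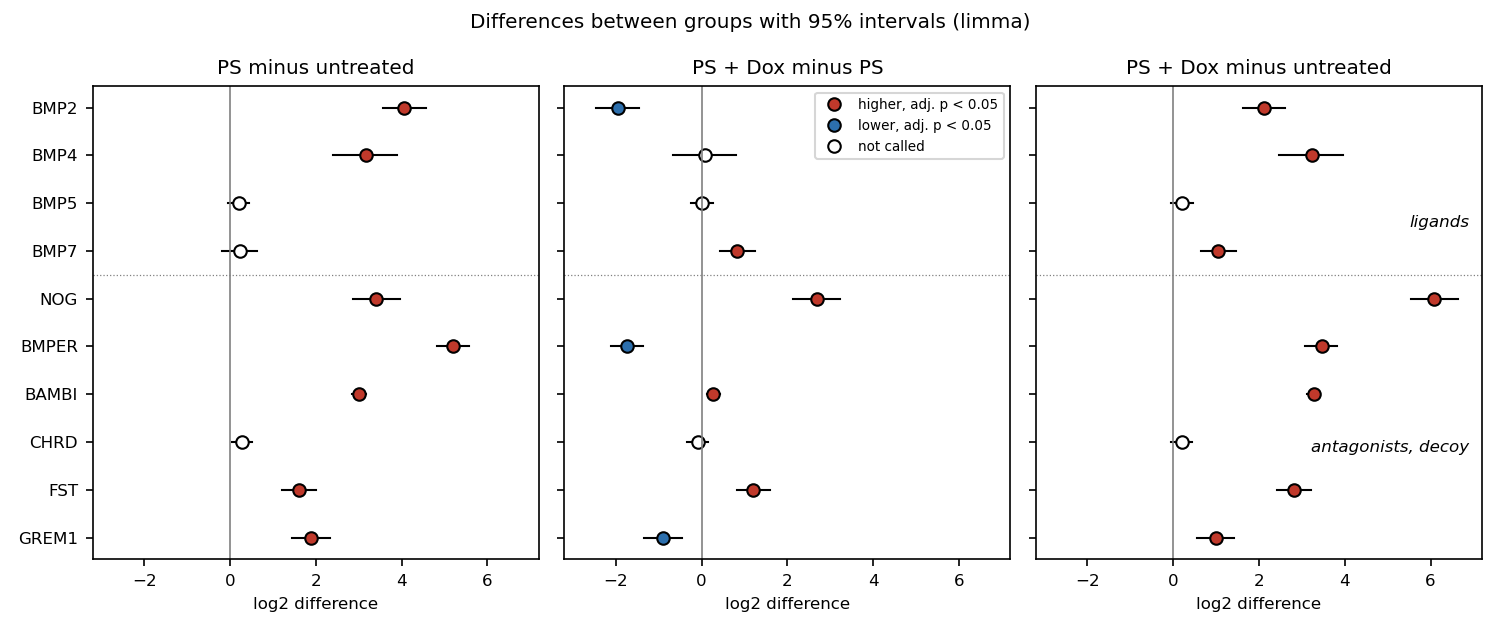
Log2 difference of each member in each of the 3 comparisons, with 95% intervals from limma (n = 3 per group). Filled points passed adjusted p under 0.05, red for higher and blue for lower. In the middle panel BMP2, BMPER and GREM1 are lower with doxycycline, and NOG, FST, BMP7 and BAMBI are higher.

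The second comparison asks which members differed once doxycycline, the inducer of TCF7L1, was given to differentiating cells. Whether the drug itself or TCF7L1 made a difference was not tested, because every group carried the transgene. The members split: 4 rose (NOG, FST, BMP7 and BAMBI) and 3 fell (BMP2, BMPER and GREM1), while BMP4, BMP5 and CHRD did not pass. Over all genes 8.91% rose, 8.44% fell and 17.3% were called either way. Without doxycycline replicate 3, 3 rose and 3 fell, because the call of BAMBI was lost. The others then differed by -2.05 ± 0.25 for BMP2, 2.86 ± 0.26 for NOG, -1.79 ± 0.20 for BMPER, 1.29 ± 0.20 for FST and -0.87 ± 0.23 for GREM1, with BMP7 given below. The median log2 difference was 0.04 over the ligands and 0.09 over the antagonists, beside 0.00 over all genes. The arrays did not overlap for 7 of 10 members, against 30.9% of all genes.

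Among the ligands, BMP2 had 803, 1438 and 1306 with doxycycline, against 3471, 4445 and 5924 in PS medium. No doxycycline array reached any PS array, and BMP2 was 3.87-fold lower (log2 -1.95 ± 0.22, adjusted p = 0.000158). BMP4 had 1200, 1594 and 3436 with doxycycline, against 1343, 1867 and 2300 in PS medium. Its groups overlapped, and the highest BMP4 value of the series was on doxycycline replicate 3, the array with the least TCF7L1 of its group. The BMP4 difference was 0.07 ± 0.34 (interval -0.67 to 0.81, adjusted p = 0.928), and without that array it was -0.36 ± 0.24 (adjusted p = 0.372).

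BMP7 moved the other way from BMP2. It had 919, 1235 and 684 with doxycycline, against 482, 599.8 and 447 in PS medium, so that its lowest doxycycline array, replicate 3, was still above every PS array. The rise was 1.78-fold (0.83 ± 0.18, adjusted p = 0.00988), and 2.05-fold without replicate 3 (1.03 ± 0.16, adjusted p = 0.00141). BMP5 had 22.4, 29.1 and 38.4 with doxycycline, against 30.1, 29.5 and 28.5 in PS medium, and its difference was 0.00 ± 0.11 (interval -0.25 to 0.26, adjusted p = 0.993). Without doxycycline replicate 2 or 3 that difference was -0.02 or -0.11.

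Among the antagonists, NOG had the largest change. It had 8494, 9930 and 6386 with doxycycline, against 953, 1086 and 2022 in PS medium, and rose 6.39-fold (2.68 ± 0.25, adjusted p = 3.84e-05). Replicate 3 held the lowest doxycycline value and the highest PS value, yet these too lay apart. FST had 1768, 2080 and 1632 with doxycycline, against 548, 933 and 926 in PS medium, a rise of 2.32-fold (1.21 ± 0.18, adjusted p = 0.000751) with no overlap.

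BMPER fell to 1293, 1758 and 1647 with doxycycline, against 4067, 5260 and 6819 in PS medium. Like BMP2, it was lower on every doxycycline array than on any PS array (3.35-fold lower, -1.74 ± 0.17, adjusted p = 5.56e-05). GREM1 had 328, 447 and 354 with doxycycline, against 843, 859 and 498 in PS medium. The gap between the groups was narrow, between 447 and 498, with a 1.86-fold lower level (-0.90 ± 0.20, adjusted p = 0.00968). Its call held in all 9 fits that left out 1 array, at adjusted p up to 0.0454.

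BAMBI had 5742, 5689 and 6162 with doxycycline, against 5163, 4716 and 4879 in PS medium. The difference was small, 1.21-fold (0.27 ± 0.07, adjusted p = 0.0222). The call was lost without PS replicate 2 (0.24, adjusted p = 0.0755), doxycycline replicate 1 (0.29, 0.0569) or doxycycline replicate 3 (0.24, 0.073). CHRD had 133, 107 and 142 with doxycycline, against 134, 137 and 138 in PS medium, and differed by -0.08 ± 0.11 (interval -0.33 to 0.16, adjusted p = 0.685).

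Arrays of the same replicate number deviated together in this comparison, at r of 0.245, 0.428 and 0.246 across genes, so differences within a number were also read. For NOG they were 3.15, 3.20 and 1.68 for replicates 1, 2 and 3, and for TCF7L1 3.37, 3.03 and 0.77. Replicate 3 thus had the smallest difference in both genes. FST (1.65, 1.15 and 0.84), BMP7 (0.89, 0.99 and 0.61) and GREM1 (-1.35, -0.91 and -0.44) also differed least in replicate 3. BMP2 (-2.08, -1.62 and -2.16) and BMPER (-1.61, -1.57 and -2.05) differed most there. BMP4 was below 0 in replicates 1 and 2 (-0.16 and -0.22) and above it in replicate 3 (0.59). Whether TCF7L1 level bears on these values was not tested, since a single array had the low level.

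**Figure D3:**
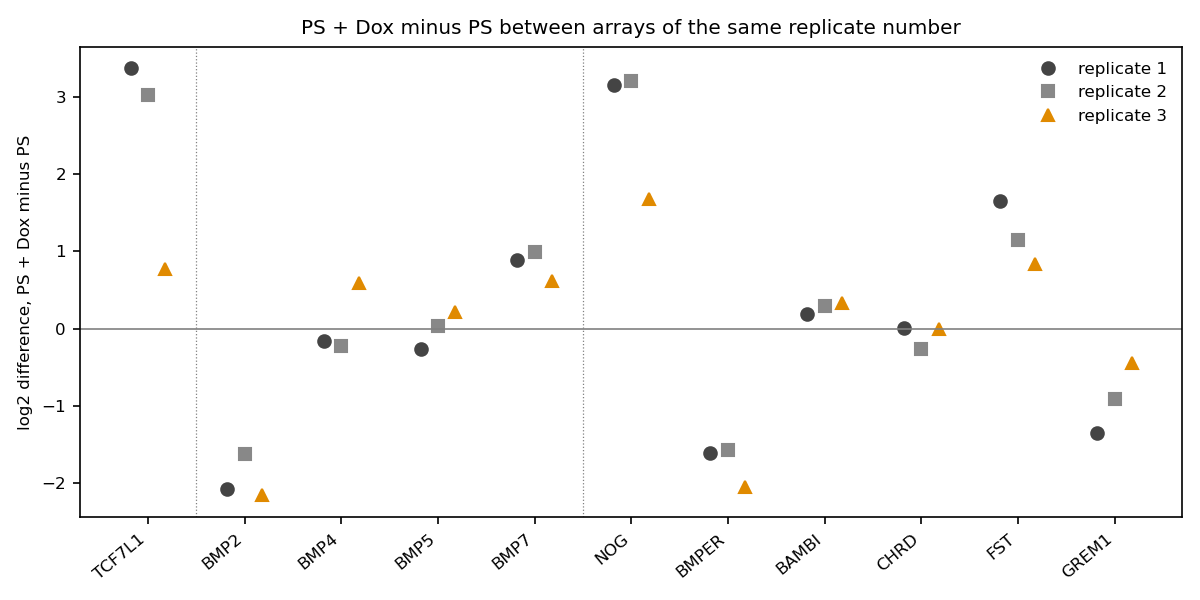
Log2 difference, doxycycline minus PS medium alone, for arrays of the same replicate number, for TCF7L1 (left), the ligands (middle) and the antagonists or decoy (right). Orange triangles mark replicate 3, which had the smallest TCF7L1 difference (0.77). NOG differs by 1.68 in replicate 3 and by 3.15 and 3.20 in the others, whereas BMP2 (-2.16) and BMPER (-2.05) are lowest in replicate 3.

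The third comparison sets PS medium with doxycycline against untreated cells, and shares its arrays with the first and second. In it 8 of 10 members rose and 0 fell by limma (8 and 0 unadjusted), against 15.3% of all genes that rose, 14.9% that fell and 30.3% called either way, and the arrays did not overlap for 8 members, against 45.0% of all genes. NOG differed most, 67.8-fold (6.08 ± 0.25, adjusted p = 5.26e-08). BMPER stayed 11.0-fold higher (3.46 ± 0.17) and BMP2 4.32-fold higher (2.11 ± 0.22) than in untreated cells despite their lower level with doxycycline than in PS medium alone. BAMBI was 9.69-fold (3.28 ± 0.07), BMP4 9.35-fold (3.23 ± 0.34) and FST 7.07-fold higher (2.82 ± 0.18). BMP7 was 2.07-fold higher (1.05 ± 0.18, adjusted p = 0.00149) and GREM1 1.99-fold higher (0.99 ± 0.20, adjusted p = 0.00332). BMP5 (0.20 ± 0.11, adjusted p = 0.218) and CHRD (0.20 ± 0.11, adjusted p = 0.211) did not pass. Without doxycycline replicate 3 the counts were 8 and 0 as well. The BMP5 difference passed without doxycycline replicate 1 (0.34, adjusted p = 0.0272).

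The order of the 3 groups therefore differed between members. NOG and FST ran from doxycycline through PS medium to untreated cells, each step apart. BMP2, BMPER and GREM1 ran from PS medium through doxycycline to untreated cells, again with each step apart. BMP4 was above untreated cells in both PS groups, which overlapped, and BAMBI was above untreated cells in both, with its small difference between them as given above. BMP7 was highest with doxycycline, with PS medium and untreated cells overlapping. Levels of BMP5 and CHRD did not differ between any groups past the threshold.

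By pattern over the 9 arrays, which form 3 groups and so share their group differences, the genes most like BMP4 were FGFR3 (Pearson r = 0.988), an FGF receptor, HAPLN1 (0.987), a hyaluronan link protein, and FURIN (0.984), a protease that cleaves BMP precursors. Those most like NOG were SLC10A7 (0.993), a membrane carrier, FAM20A (0.991), a secretory pathway pseudokinase, and ELF4 (0.991), an ETS factor. The search covered the 1575 other genes whose group means spanned at least 1 log2 unit.

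The rest of the BMP pathway was read from 7 lists of 68 genes, 65 of them measured. Of 10 other BMP and GDF ligands, 0 rose and 2 fell in PS medium against untreated cells by limma (0 and 2 unadjusted), with a median log2 difference of -0.10. These were BMP6, a ligand of iron control (-0.35 ± 0.09, adjusted p = 0.0124), and GDF2, an endothelial ligand also called BMP9 (-0.33 ± 0.11, adjusted p = 0.0491). The GDF2 call was lost without PS replicate 1 (-0.38, adjusted p = 0.0539), PS replicate 3 (-0.21, 0.144) or any untreated array (adjusted p from 0.0935 to 0.145), and without doxycycline replicate 2 (-0.33, 0.0599). With doxycycline against PS medium, GDF6 (0.45 ± 0.11, adjusted p = 0.013) and BMP8A (0.35 ± 0.09, adjusted p = 0.0222) rose and 0 fell (3 and 1 unadjusted). BMP8A has a near-identical copy, BMP8B, which its probes may not separate, and its call was lost without PS replicate 2 (0.0607) or 3 (0.0664) or doxycycline replicate 1 (0.0907).

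Of 12 measured other antagonists and modulators, 5 rose and 2 fell in PS medium against untreated cells, with a median of 0.03. CER1, cerberus, which binds Nodal and BMPs, differed by 7.36 ± 0.20 (adjusted p = 1.73e-09, 6.73 with a log offset of 64). CHRDL1, a chordin-like antagonist, was 3.86-fold lower (-1.95 ± 0.12), at 384, 389 and 279 in PS medium, against 1383, 1423 and 1303 in untreated cells. TWSG1, which helps chordin bind BMPs, rose 1.84-fold, and SOSTDC1, a sclerostin relative, rose 1.53-fold (adjusted p = 0.0133, and 0.0525 without untreated replicate 3). Without untreated replicate 1 or 3, 3 of the list rose. With doxycycline against PS medium, 3 rose and 3 fell. CRIM1, a membrane protein that binds BMPs (0.84 ± 0.08), and CHRDL1 (0.83 ± 0.12) rose, and TWSG1 fell (-0.57 ± 0.09). CER1 fell as well, to 6455, 8787 and 6896 with doxycycline, against 14989, 15184 and 15315 in PS medium (adjusted p = 0.0047).

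Of 11 measured receptors and co-receptors, 5 rose and 1 fell in PS medium against untreated cells (median 0.12). BMPR2, the type II BMP receptor, rose 3.15-fold (1.65 ± 0.09, adjusted p = 4.54e-07), ACVR1, a type I receptor, 1.76-fold, and ACVR2A, a type II receptor, by 0.58 ± 0.10 on the log2 scale. RGMA, a BMP co-receptor, was 2.42-fold lower. With doxycycline against PS medium 0 receptors rose and 1 fell by limma (1 and 4 unadjusted, 1 and 2 by limma without doxycycline replicate 3, 1 and 3 with the replicate number as a block). That gene was BMPR2 (-0.34 ± 0.09, adjusted p = 0.0268), whose call was lost without PS replicate 3 (-0.23, 0.0561), doxycycline replicate 2 (-0.31, 0.0845) or doxycycline replicate 3 (-0.32, 0.0732). Of the 4 ligands that follistatin also binds, INHBA, the activin A subunit, fell in PS medium against untreated cells (-0.73 ± 0.13, adjusted p = 0.00159), and GDF11 rose with doxycycline against PS medium (0.62 ± 0.07, adjusted p = 0.000199).

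Of 6 proteases that process BMPs or cleave chordin, 2 rose and 3 fell in PS medium against untreated cells (median -0.15). FURIN, a convertase of BMP precursors, rose 2.27-fold (1.18 ± 0.09), and PCSK6, a related convertase, 1.51-fold. PCSK5, another convertase, was 1.93-fold lower, and TLL2, a tolloid-like protease, 1.58-fold lower. With doxycycline against PS medium PCSK5 rose, at 424, 451 and 259, against 158, 159 and 149 (2.21-fold, 1.14 ± 0.17, adjusted p = 0.00105). TLL1, a tolloid-like protease that cleaves chordin, rose by 0.37 ± 0.10 (adjusted p = 0.0308). The TLL1 call was lost without PS replicate 2 (0.36, adjusted p = 0.0759), PS replicate 3 (0.29, 0.0966), doxycycline replicate 1 (0.39, 0.0627) or doxycycline replicate 3 (0.31, 0.102), and then 1 protease rose.

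Of 8 SMAD and SMURF genes, 5 rose and 0 fell in PS medium against untreated cells by limma (6 and 0 unadjusted, median 0.40). SMAD6, an inhibitory SMAD that BMP signalling induces, rose 13.4-fold (3.74 ± 0.15), SMAD9, a BMP-activated SMAD, 8.85-fold (3.15 ± 0.18), SMAD7, an inhibitory SMAD, 3.67-fold, and SMAD1 1.51-fold. With doxycycline against PS medium SMAD6 fell (-1.09 ± 0.15, adjusted p = 0.000565), at 3061, 2981 and 2903, against 5511, 5650 and 8948. SMURF2, a ubiquitin ligase for SMADs, rose by 0.25 ± 0.07 (adjusted p = 0.0272). Its call was lost without PS replicate 1 (0.0984) or 2 (0.0647) or doxycycline replicate 1 (0.0875) or 2 (0.0738), and 2 genes of the list fell without untreated replicate 3 and with the replicate number as a block.

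Of 14 genes commonly read as BMP targets, 11 rose and 0 fell in PS medium against untreated cells by limma (11 and 0 unadjusted), with a median of 2.33. HAND1, a helix-loop-helix factor of early mesoderm, differed by 6.73 ± 0.31, TBX3, a T-box factor, by 6.36 ± 0.15, TFAP2A, an AP-2 factor, by 5.28 ± 0.15 and GATA3, a zinc finger factor, by 5.18 ± 0.12. Because HAND1 and TBX3 were dim in untreated cells, their differences were 7.75 and 7.69 with a log offset of 1 and 5.44 and 4.87 with one of 64. The GATA3 difference was 4.40 with the offset of 64.

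With doxycycline against PS medium, 9 of the 14 targets rose and 0 fell by limma (10 and 1 unadjusted), with a median of 0.65. The target list was chosen with earlier results of these data known. Over all genes 8.91% rose and 8.44% fell. The count leaves out SMAD6, which BMP signalling also induces but which is in the SMAD list, and which fell (-1.09 ± 0.15). SMAD7, of that same list, did not pass (-0.48 ± 0.17, adjusted p = 0.0912). In fits without 1 doxycycline array, 7 of the 14 targets rose without replicate 1, 7 without replicate 2 and 8 without replicate 3. With the replicate number as a block, 1 target fell. DLX5, a homeobox factor, had 3657, 3745 and 2998 with doxycycline, against 148, 184 and 136 in PS medium (4.34 ± 0.13, adjusted p = 2.09e-08). DLX3, a related factor, had 525, 626 and 381, against 68.3, 69.2 and 76.5 (2.55 ± 0.15). Both were higher on every doxycycline array than on any PS array. ID4, an inhibitor of helix-loop-helix factors, rose by 1.54 ± 0.11 and TFAP2A 2.24-fold (1.17 ± 0.15). Of the 4 ID genes, singled out after their values were seen, 4 rose in PS medium against untreated cells, and 3 rose with doxycycline against PS medium: ID4, ID1 (0.24 ± 0.06, adjusted p = 0.0148) and ID2 (0.40 ± 0.11, 0.0313). The fourth, ID3, had 3341, 3767 and 2504 with doxycycline, against 4544, 4409 and 3763 in PS medium, and its difference of -0.39 ± 0.15 did not pass (adjusted p = 0.119). The ID1 call was lost without doxycycline replicate 1 or 2 (0.0597 each), and the ID2 call without any 1 of the PS or doxycycline arrays (adjusted p from 0.0503 to 0.0853). Among the 14 targets, 4 are also in the amnion marker list, whose sums are given above.

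**Figure D4:**
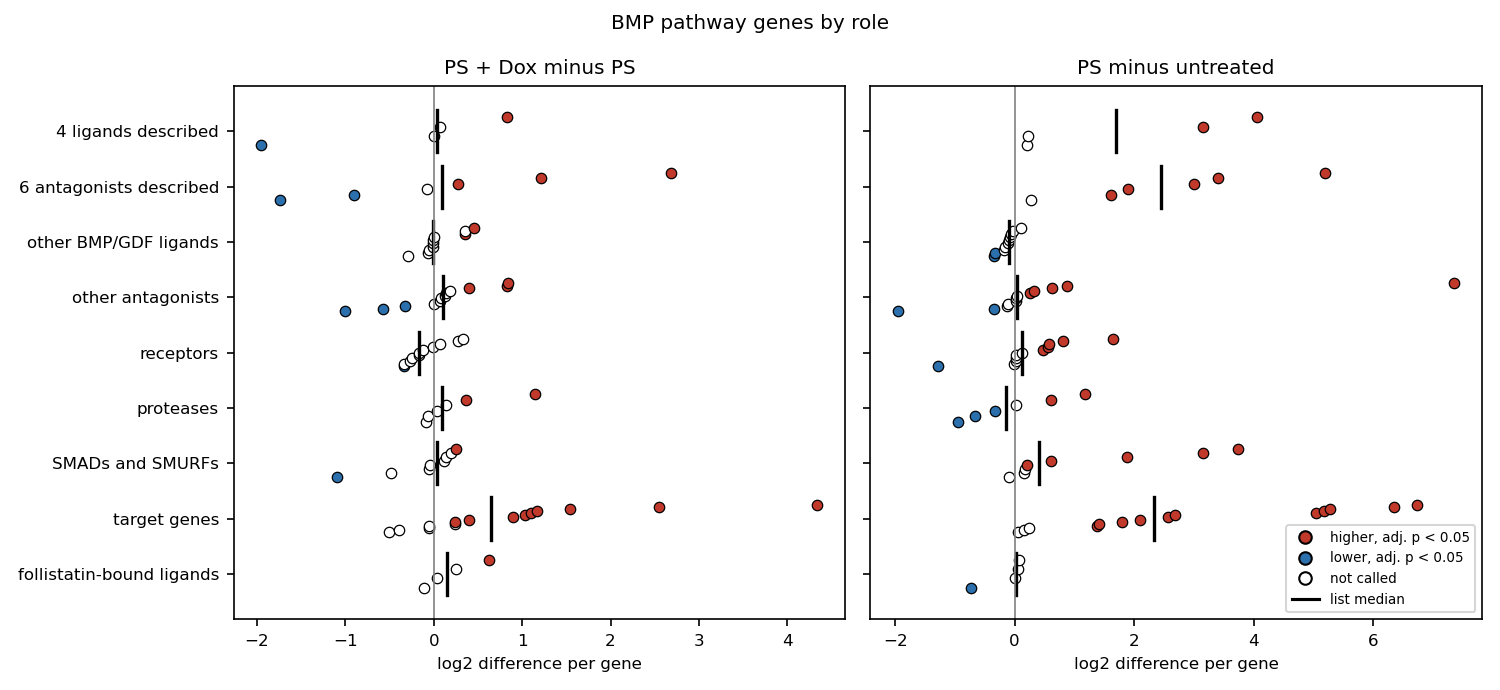
Log2 difference of each measured BMP pathway gene by role, for PS medium with doxycycline minus PS medium (left) and PS medium minus untreated cells (right). Points are genes, filled where adjusted p is under 0.05 (red higher, blue lower), and bars are list medians. The target genes have medians of 0.65 (left) and 2.33 (right), beside 0.00 and -0.01 over all genes.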

How the data were processed

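Per the submitters' processing notes, the deposited values came from Affymetrix Expression Console 1.1.1 and PLIER 2.0. The authors' unit is linear intensity, 1 value per probe set (2.47e-05 to 57102), with background correction and normalization not given in the sources used here. Symbols came from the platform annotation, of 19460 probe sets with 1 gene, updated by gene number to GRCh38.p14 for 19429. The probe set with the highest mean stood for each of 18417 genes.

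Values were converted to log2(value + 16), so folds understate changes of dim genes, and quantile-normalized, because array medians (200.4 to 216.5) spanned over 0.1 on the log2 scale. All 9 arrays were fitted in limma 3.58.1 (R 4.3.3, data.table package 1.17.8; lmFit, eBayes with trend), with Benjamini-Hochberg adjustment over all genes and a threshold of 0.05, after a check on simulated data. Figures used matplotlib 3.10.9 under Python 3.11.15. Nothing in the labels ties replicates to separate cultures, and the p-values therefore cover only the spread among these arrays, which may be technical. The number of arrays, 3 per group, limits the precision.

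Named genes were all members, TCF7L1, up to 4 called genes with the largest differences per further list and comparison, and the 3 genes most correlated with BMP4 and with NOG. Members and lists were chosen with earlier results of these data known. Some listed genes are not reported here. Same-numbered arrays deviated together at r of 0.245, 0.428 and 0.246 (doxycycline and PS medium), 0.246, 0.309 and 0.297 (doxycycline and untreated), and 0.086, 0.397 and 0.271 (PS medium and untreated). The labels do not say that the numbers pair samples, and no r between arrays of different numbers is given here. The main fit had no replicate term, so its SEs and p-values take no account of such pairing. The number entered only in the differences within a number and as a block in a recomputed fit.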

Additional observations from a re-analysis of the deposited data

How the results depend on the processing

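Each result was recomputed with log offsets of 1 and 64, on values as deposited, with median centring, without the dimmest 25% of genes, over all probe sets with 1 symbol, in fits of the 2 groups alone, without the trend, with a replicate block and without each array. Counts and genes of the pathway lists under these settings were added after the data were seen. Leaving out an array of the third group, the trend or the dimmest genes could change the SE and adjusted p but not a difference itself. The same holds for fits of the 2 groups alone, all probe sets with 1 symbol and the replicate block. Under all these settings a kept direction was fixed in advance. With those settings counted in, of 537 recomputed member differences, 527 kept direction and side of the threshold. Those that turned sign were all uncalled with doxycycline against PS medium: BMP5 with an offset of 1 (-0.01) or without doxycycline replicate 2 (-0.02) or 3 (-0.11), and BMP4 without PS replicate 1 (-0.13) or doxycycline replicate 3 (-0.36). The BAMBI call of that comparison was also lost with median centring (0.25, adjusted p = 0.0716). With doxycycline replicate 1 left out, these differences were 0.14 for BMP5 and 0.38 for BMP4. The cause was not tested. With the replicate block 7 members rose in PS medium against untreated cells, 4 rose and 3 fell with doxycycline against PS medium, and 8 rose with doxycycline against untreated cells, as without it. The block raised the genes called with doxycycline against PS medium to 4481, against 3195 without it, and changed no member's call. Without those dimmest genes BMP5 was not tested. Among named pathway genes, calls were also lost with median centring for GDF2 (adjusted p = 0.0783), SMURF2 (0.123) and ID1 (0.0918), on values as deposited for TLL1 (0.0527) and SMURF2 (0.0501), and in fits of the 2 groups alone for GDF2 (0.0551), BMP8A (0.0569), BMPR2 (0.065) and TLL1 (0.0582). BMP5 and CHRD lay below the array median on all 9 arrays, NOG, BMPER and GREM1 on 3 each and BMP4 on 1. Low signal limits the comparison there.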
